A study of Mus musculus with 6 samples.

Results

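DNA methylation was described here at the genes of 4 families of developmental transcription factors, the forkhead (Fox), Sox, T-box (Tbx) and Gata factors, in quadriceps muscle of C57BL/6 mice. Members were the gene regions of the deposited table that hold at least 3 measured cytosine positions and whose RefSeq transcript maps to a numbered Fox, Sox, Tbx or Gata1 to Gata6 symbol, with Sox6, Sox10 and Sox17 left out. This gave 64 of 10021 regions, made of 36 Fox, 13 Sox, 10 Tbx and 5 Gata regions, with 2503 positions in all. They belong to 63 genes. The samples were 3 of exercised mice, trained for 4 weeks on a motor-driven treadmill with muscle DNA isolated 3 hours after the last bout, and 3 of sedentary control mice. Both groups are the same strain and tissue, and no age or sex is given in the labels. The assay was reduced representation bisulfite sequencing (RRBS), in which DNA is cut by a restriction enzyme at CpG-containing sites and treated with bisulfite, after which an unmethylated cytosine is sequenced as T and a methylated one still as C. Whether the samples of a group are separate mice is not stated, and a p-value below therefore refers to the spread among these libraries, which may be technical.

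The 4 families bind DNA through forkhead, HMG-box, T-box and zinc-finger domains, respectively. Many of them lay out organs in the embryo and are silent in most adult tissues, and the start sites of such genes usually lie in CpG islands, stretches rich in CpG that tend to stay free of methylation. In muscle, the FoxO factors switch on atrophy and autophagy genes when insulin and Akt signalling falls, Foxk1 marks myogenic progenitors, Tbx1 acts in the muscles of the head and Tbx15 in glycolytic fibres of the mouse.

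Coverage summed over all positions was 14556783, 17815556 and 16415619 in exercised samples 1 to 3, against 15509309, 18656340 and 9153526 in sedentary samples 1 to 3. In these sums a read over several positions counts once at each of them. At the members the median coverage of a position was 47.0, 56.0 and 52.0 reads in the exercised samples and 46.0, 61.0 and 28.0 in the sedentary ones, and each listed position had at least 10 reads in each sample. Sedentary sample 3 was therefore the least precisely measured. The markers fixed for muscle fibres were covered at 3 of 15 genes and those of other cell types at 2 of 12, too few to describe the tissue. Over all positions and the 6 samples, the 2 markers of other cells, Pdgfra and Mbp, were at 29.1% and 27.0%. On the same measure the muscle markers Acta1, Des and Pvalb were at 72.3%, 28.0% and 0.370%.

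The letters around a measured cytosine could be read for 12 members, whose spacing of measured positions matched the CpG spacing of their RefSeq promoter (build GRCm38.p6) when the transcript start was set at base 2001 of the 3000-base region. The 5 promoters below are the 250 bases before the start, 5′ to 3′ on the gene's strand, with CCGG in capitals, because the high readings in these windows sat on these letters, in Sox30 on other CpGs as well. They lie at chr11:121259737-121259986 (Foxk2, plus strand), chr6:122819934-122820183 (Foxj2, plus strand), chr17:47924633-47924882 (Foxp4, minus strand), chr9:24774304-24774553 (Tbx20, minus strand) and chr11:45980060-45980309 (Sox30, plus strand).
Foxk2: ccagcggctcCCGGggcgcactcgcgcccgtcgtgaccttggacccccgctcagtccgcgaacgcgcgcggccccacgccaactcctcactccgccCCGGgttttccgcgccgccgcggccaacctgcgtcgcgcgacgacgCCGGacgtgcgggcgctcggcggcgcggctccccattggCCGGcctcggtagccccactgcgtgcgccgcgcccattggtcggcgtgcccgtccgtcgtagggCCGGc
Foxj2: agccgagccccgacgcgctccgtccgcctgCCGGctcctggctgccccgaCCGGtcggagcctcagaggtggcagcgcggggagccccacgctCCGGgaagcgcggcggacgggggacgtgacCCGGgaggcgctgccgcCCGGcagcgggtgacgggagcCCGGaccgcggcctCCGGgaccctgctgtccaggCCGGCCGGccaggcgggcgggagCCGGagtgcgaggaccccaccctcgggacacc
Foxp4: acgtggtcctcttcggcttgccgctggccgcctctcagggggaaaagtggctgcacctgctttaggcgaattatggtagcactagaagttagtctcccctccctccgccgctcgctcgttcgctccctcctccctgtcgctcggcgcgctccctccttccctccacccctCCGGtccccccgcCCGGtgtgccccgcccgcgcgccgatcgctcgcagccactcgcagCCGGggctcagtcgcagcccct
Tbx20: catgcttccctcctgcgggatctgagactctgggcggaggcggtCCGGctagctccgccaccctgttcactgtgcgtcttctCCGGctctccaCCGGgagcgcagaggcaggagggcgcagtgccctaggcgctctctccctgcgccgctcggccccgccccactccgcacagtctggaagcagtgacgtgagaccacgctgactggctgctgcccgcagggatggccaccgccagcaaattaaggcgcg
Sox30: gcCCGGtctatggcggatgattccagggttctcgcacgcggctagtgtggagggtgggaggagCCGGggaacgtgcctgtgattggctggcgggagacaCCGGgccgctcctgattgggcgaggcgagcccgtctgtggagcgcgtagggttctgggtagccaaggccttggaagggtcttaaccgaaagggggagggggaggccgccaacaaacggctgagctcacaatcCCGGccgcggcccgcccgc

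In the placed members, CpG cytosines inside CCGG read as methylated, and those outside it read as unmethylated, except in Sox30. CCGG is the recognition sequence of MspI, an enzyme often used for RRBS, and TCGA is that of TaqI. The labels do not name the enzyme. All 47 measured positions in CCGG of the 12 placed members had a mean level over the 6 samples of at least 10%, with a range of 11.6% to 100%. Outside CCGG, 5 of 154 positions (3.25%) were at 10% or more, and all 5 were in Sox30. Over all 2260 placed regions of the table, 97.0% of 8135 positions in CCGG and 95.1% of 792 in TCGA reached 10%, against 1.61% of 23525 other positions. In these windows the pattern of the placed members is thus that of all placed regions. CCGG was found in the 300-base window (either strand, since the motif reads the same on both) of 84.8% of 46 promoters of member genes, against 83.0% of the promoters of all genes in the table and 52.8% of all 32851 RefSeq promoters. TCGA, which does not overlap CCGG, was found in 19.6% of the members' promoters, against 28.5% and 22.0%.

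Foxk2, a ubiquitous forkhead repressor, shows the contrast with the most positions. Its 9 positions in CCGG averaged 63.8%, 64.9% and 66.0% in exercised samples 1 to 3, against 65.1%, 63.5% and 63.7% in sedentary samples 1 to 3. Its 57 positions outside CCGG averaged 0.592%, 0.865% and 1.71% in the exercised samples, against 1.06%, 0.871% and 1.58% in the sedentary ones. The groups overlapped on both measures, and the gap between the 2 kinds of position was present in each sample. The windows of Foxj2, Foxp4 and Tbx20 were alike, with 10, 5 and 4 positions in CCGG at medians of 53.7%, 70.2% and 61.7%, and 22, 20 and 4 other positions at medians of 1.03%, 1.20% and 2.30%. Sox30, which acts in male germ cells of the mouse, had 3 positions in CCGG at 41.0% to 97.3% and 5 others at 20.5% to 52.0%.

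**Figure D1:**
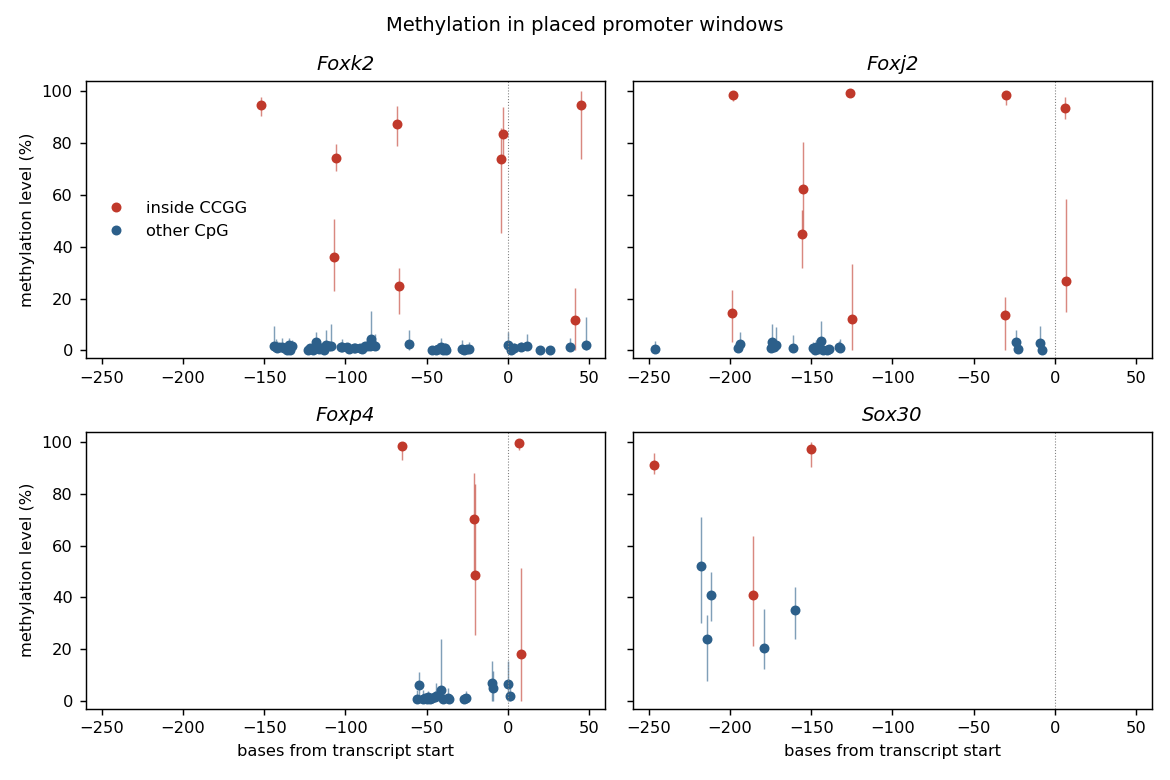
Methylation level (%) of each measured position against its distance in bases from the transcript start in the placed windows of Foxk2, Foxj2, Foxp4 and Sox30; points are means of the 6 samples and lines run from the lowest to the highest sample. Positions in CCGG (red) stand at 11.6% or higher, other CpG positions (blue) lie near 0 except in Sox30, where they are at 20.5% to 52.0%.

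At CCGG the strands of 1 CpG also read differently. Over 2924 such CpGs with both strands measured in the placed regions, the higher strand had a median of 96.8% and the lower one of 21.0%, and the strands differed by at least 40 points at 74.5% of them. At 8027 other CpGs the medians were 2.19% and 0.893%, and none differed that much. Among the members, 9 of 13 CCGG CpGs differed by at least 40 points, against 0 of 54 others. In Foxj2, for example, the CpG at bases -199 and -198 stood at 14.4% and 98.8% and that at -126 and -125 at 99.3% and 12.1%, while the positions between them outside CCGG stayed at 3.66% or lower. Why the readings in CCGG are high and unequal was not tested, and a level that includes them is not read here as methylation of the promoter.

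For the members whose letters could not be read, 2 patterns were therefore used as a stand-in for CCGG. A stand-alone position has a mean level of at least 10% and at least 2 other positions within 100 bases whose median is under 10%. An unequal pair is an isolated pair of adjacent positions, the strands of 1 CpG, whose levels differ by at least 40 points. In the placed regions these patterns took in 94.2% of the positions in CCGG or TCGA and 0.561% of the others, and in the placed members 93.6% and 0%. Of the 777 member positions at 10% or more, 588 (75.7%) were stand-alone, against 80.6% in the other regions. The remaining positions are called interior positions below. They can still include CCGG positions with few low neighbours and 1 strand measured, as the 3 in the Sox30 window were. An interior level may therefore hold such readings, above all in a region with few positions but also in one with many.

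Over all positions the members' regions had a median level of 22.3%, against 22.0% in the other regions, and over interior positions the median was 3.13%, against 2.29%. Of the 62 members with at least 3 interior positions, 52 (83.9%) were under 10% and 45 (72.6%) under 5%, against 81.2% and 72.4% of the other regions. Most members thus had low interior levels, at shares near those of the other regions. These levels leave out positions by their own level, so they describe the remaining positions and not the whole promoter. By family, 30 of 35 Fox, 10 of 13 Sox, 7 of 9 Tbx and 5 of 5 Gata regions were under 10%.

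**Figure D2:**
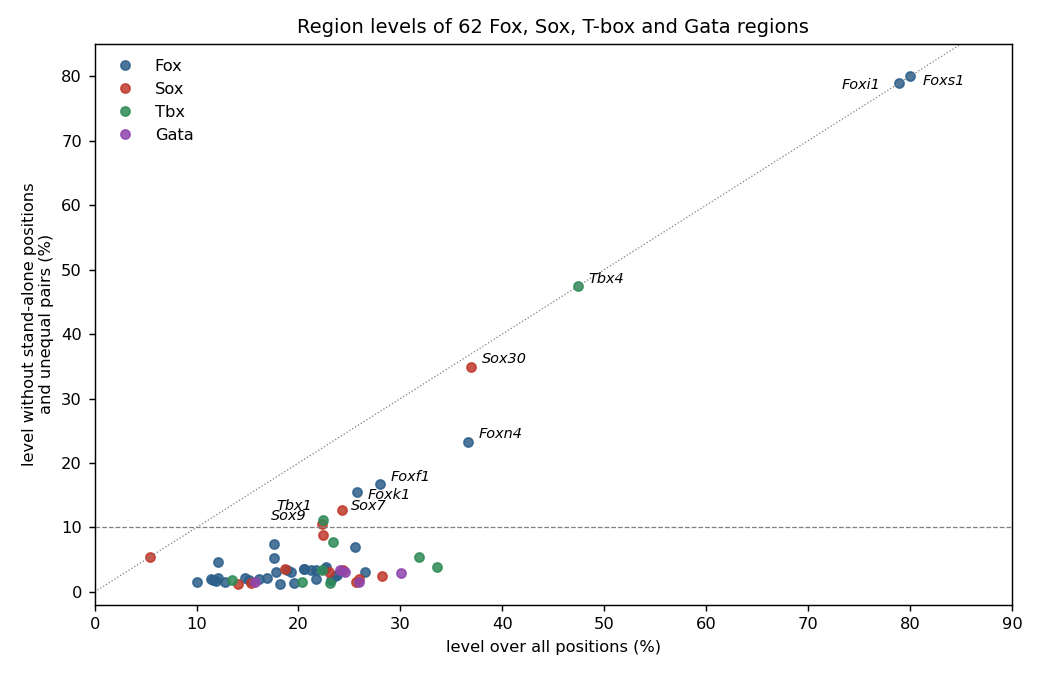
Region level (%, mean of the 6 samples) over all positions on the horizontal axis and over interior positions on the vertical axis for 62 members, coloured by family; the dotted line marks equal levels and the dashed line 10%. Most members fall from about 10% to 35% to under 5%, and 10 named members stay at 10% or more.

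The FoxO genes had low interior levels in both groups. Foxo1 (chromosome 3, 52070259 to 52073258 in mm9, as all region coordinates here) had interior levels of 2.22%, 1.86% and 1.61% in exercised samples 1 to 3, against 1.66%, 1.80% and 2.38% in sedentary samples 1 to 3. Foxo3 (chromosome 10, 41995549 to 41998548) had 1.47%, 2.49% and 1.88% in exercised samples and 3.58%, 1.44% and 0.995% in sedentary ones. In both genes the groups overlapped. Foxo4 on the X chromosome averaged 1.43% ± 1.33 in exercised and 2.32% ± 2.01 in sedentary muscle (SD, n = 3 each), and Foxo6, the family member known from brain, averaged 1.49% ± 0.281 and 1.23% ± 0.594.

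The Gata factors, which specify blood cells (Gata2, Gata3) and heart and endoderm (Gata4, Gata5, Gata6), were also low, with interior levels of 1.60%, 1.53%, 2.93%, 3.06% and 3.45% for Gata2 to Gata6. Gata6 had 10.1%, 2.97% and 1.55% in exercised samples 1 to 3, against 2.06%, 2.22% and 1.75% in sedentary samples 1 to 3. Its difference of 2.87 points rested on exercised sample 1, and the groups overlapped. Over all positions, the Gata6 difference of 2.73 points was -0.981 points without that sample.

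Among the Sox genes, the SoxC factors Sox4, Sox11 and Sox12, known from neural and mesenchymal progenitors, had interior levels of 1.15%, 3.61% and 1.36%. The neural and stem-cell factors Sox1 and Sox2 had 2.49% and 8.84%, and Sox8, reported in satellite cells of the mouse, had 3.46% over 3 positions. Sox7 and Sox9 passed 10%. Sox7, an endothelial factor (chromosome 14, 64560543 to 64563542), was at 12.7%, with methylated interior positions between bases 2415 and 2518 of the region at 12.1% to 74.5%. Sox9, the regulator of cartilage (chromosome 11, 112641524 to 112644523), was at 10.6% with 6 of 33 interior positions at 13.1% to 100%.

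Sox30 carried methylation just before its start and a short unmethylated stretch after it. All 10 positions measured between bases -278 and -150 stood at 20.5% to 97.3%. Of those in the placed window, 3 were in CCGG, at 41.0% to 97.3%, and 5 were outside it, at 20.5% to 52.0%. The CCGG positions also enter the interior level of the region. The 10 positions between bases 428 and 445 downstream averaged 1.69%. The other 5 interior positions after the start, on either side of that stretch, stood at 16.5% to 100%. The interior level of the whole region (chromosome 11, 45791812 to 45794811) was 31.9%, 38.8% and 31.3% in exercised samples 1 to 3, against 39.5%, 31.7% and 35.9% in sedentary samples 1 to 3, so the groups overlapped.

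Of the T-box genes, the neighbours on chromosomes 5 and 11 differed in what their regions showed. Tbx2 and Tbx3 had 45 and 12 interior positions with levels of 3.47% and 1.56%, and 22.3% and 20.3% over all positions. Their neighbours Tbx4 and Tbx5, which specify hindlimb and forelimb, had 47.4% and 59.3% over all positions, but on 5 and 4 positions. The 4 positions of Tbx5 were 2 unequal pairs, at 25.7% and 95.7% and at 98.5% and 16.7%, with no interior position. Those of Tbx4 were at 16.5%, 97.9%, 30.4%, 7.85% and 98.1%, between bases -1547 and -1336 from a start assumed at base 2001. The pattern of Tbx5 was that of CCGG, and its region therefore gives no interior level. Foxj1, the factor of motile cilia, was similar. Its 2 interior positions stood at 4.34% and 2.56% between pairs at 15.7% and 98.9% and at 91.3% and 16.3%, which gave 39.4% over all 6 positions.

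Tbx1 (chromosome 16, 18586063 to 18589062) was methylated far upstream of its assumed start. Its 29 interior positions at 10% or more lay between bases -1716 and -1135 and averaged 33.7%, 28.8% and 21.5% in exercised samples 1 to 3, against 27.3%, 25.5% and 26.1% in sedentary samples 1 to 3. The groups overlapped, with exercised sample 1 highest and exercised sample 3 lowest. Another 55 interior positions, between bases -1255 and 610, averaged 3.20%. Sox11 (chromosome 12, 28026584 to 28029583) had a smaller stretch of 6 interior positions at 19.1% to 41.7% between bases -1170 and -1157, while its other 59 interior positions, from base -647 to 420, averaged 1.96%.

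In the 40 genes whose strand was known, a larger share of the interior positions was at 10% or more far upstream than near the start. For all 40 the start was assumed at base 2001 of the region on the gene's strand. Only 12 members were placed there by sequence, and Tbx1, Sox11, Tbx4 and Foxi1 were not among them. Of the interior positions between bases 0 and 499 from the start, 11 of 521 (2.11%) were at 10% or more, and between bases -500 and -1 this was 11 of 221 (4.98%), of which 10 were in Sox30. Between bases -1500 and -1001 it was 40 of 66 (60.6%) over 8 genes. Without Tbx1 it was 14 of 38 (36.8%). The definition of interior positions enters these shares, because high positions among low neighbours were left out as stand-alone. This took 166 of 693 positions between bases 0 and 499, against 3 of 79 between bases -1500 and -1001. The shares are therefore not those of all positions. They rest on few genes and are given as a description.

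The highest interior levels were those of 2 Fox genes measured at few positions. Foxs1, known from peripheral sensory neurons (chromosome 2, 152757945 to 152760944), had 84.0%, 78.4% and 76.5% in exercised samples 1 to 3, against 74.5%, 83.3% and 83.5% in sedentary samples 1 to 3, over 6 positions at 64.2% to 100%. Foxi1, a factor of inner ear and kidney ion-transporting cells (chromosome 11, 34107090 to 34110089), had 81.1%, 80.2% and 82.9% in exercised samples, against 78.1%, 80.9% and 70.4% in sedentary ones, over 5 positions at 58.7% to 99.3% between bases 40 and 103 after the start. The groups overlapped in both, and neither region held a position under 10%. The Foxi1 difference of 4.99 points was the largest among the members over all positions, and it was 1.95 points without sedentary sample 3 (edgeR quasi-likelihood test on all samples, unadjusted p = 0.209). Foxn4, Foxf1 and Foxk1 were at 23.3%, 16.7% and 15.5%. In Foxk1 (chromosome 5, 142875451 to 142878450) 12 of 49 interior positions were at 13.1% or more, while 37 averaged 1.43%.

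**Figure D3:**
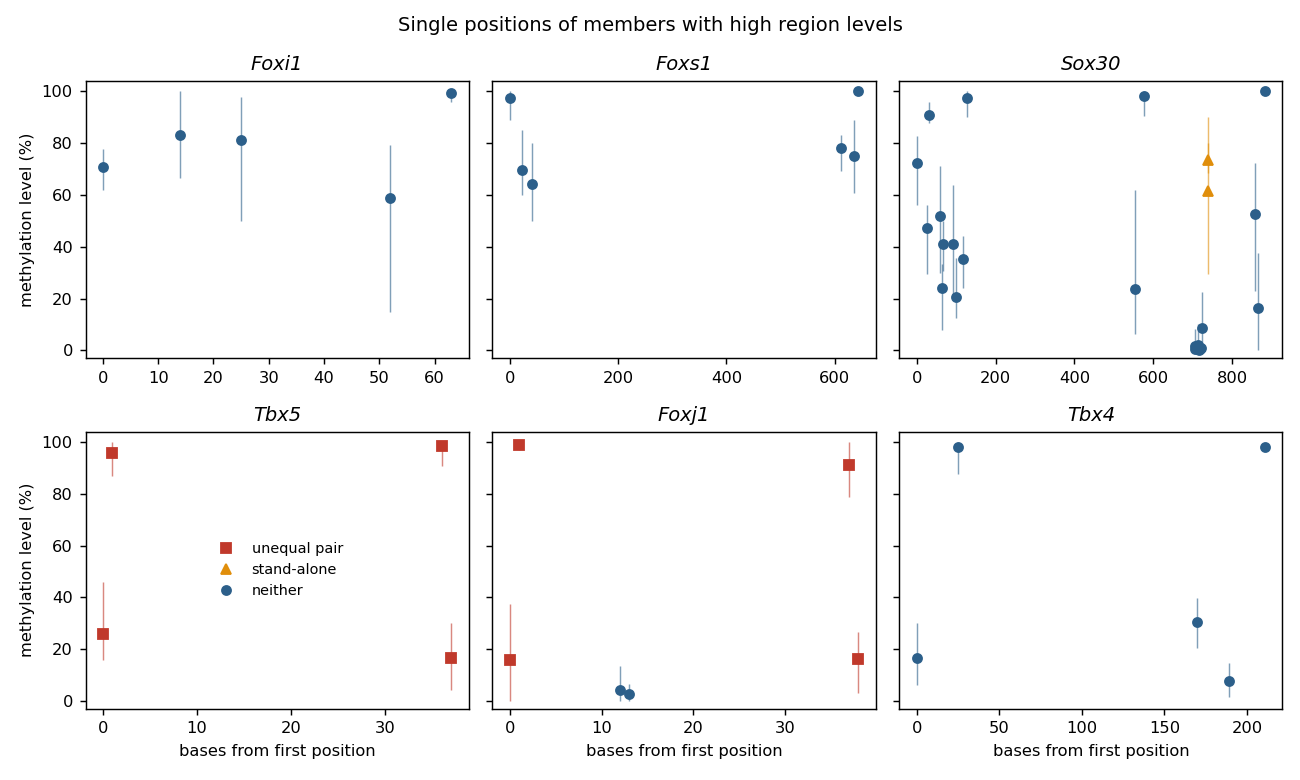
Methylation level (%) of single positions of Foxi1, Foxs1, Sox30, Tbx5, Foxj1 and Tbx4 against bases from the first measured position of each region; points are means of the 6 samples, lines run from the lowest to the highest sample, and marker shape gives the pattern. Foxi1 and Foxs1 are high throughout, at 58.7% or more, whereas the high values of Tbx5 and Foxj1 belong to unequal pairs.

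Exercised and sedentary muscle were compared next, with edgeR's quasi-likelihood test on methylated and unmethylated reads over all 10021 regions. No member and no other region passed the adjusted threshold of 0.05. At an unadjusted p under 0.05, 237 regions (2.37%) were called, and the members' count was 1 of 64 (1.56%), Sox11. In limma on log2 ratios 0 members were called at the same unadjusted p. The member regions averaged 24.3% ± 1.03 in exercised muscle and 23.9% ± 0.597 in sedentary muscle (SD, n = 3 each). The median difference, exercised minus sedentary, was 0.398 points over the members and 0.390 over all regions, with 40 members higher (62.5%) and 24 lower, against 61.0% of all regions higher. The members' median difference was -0.0610 points without exercised sample 1, 0.955 without exercised sample 3 and 0.154 without sedentary sample 2, so that its sign turned without exercised sample 1. By family the median was 0.603 points for Fox, -0.158 for Sox, 0.376 for Tbx and 0.396 for Gata. Over interior positions the mean levels were 8.03% ± 0.445 in exercised and 7.80% ± 0.487 in sedentary samples, and the median difference was 0.0859 points, against 0.147 over all regions, with 33 members higher and 29 lower.

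Sox11 was the member with the smallest p over all positions. Over all 89 positions it had 22.2%, 19.7% and 18.6% in exercised samples 1 to 3, against 17.7%, 16.2% and 17.8% in sedentary samples 1 to 3. The exercised samples were all above the sedentary ones, by 2.92 points on average (edgeR unadjusted p = 0.0214, adjusted p = 1). Its 65 interior positions had 5.49%, 5.32% and 3.68% in exercised samples and 3.09%, 1.44% and 2.65% in sedentary ones, again without overlap, a difference of 2.44 points (unadjusted p = 0.0127, adjusted p = 1). The upstream stretch of 6 positions had 28.6% ± 6.11 in exercised and 29.1% ± 1.27 in sedentary muscle, a difference smaller than either SD. Over all positions, the unadjusted call was lost without exercised sample 1 and without sedentary sample 2, with differences of 1.92 to 3.69 points when 1 sample was left out. It was also lost at a coverage of at least 20 reads (1.60 points) and over positions at 10% to 90% (-0.266 points). Both limma fits lost the call as well, on levels with equal weight of positions (1.14 points) and on log2 ratios. With equal weight of positions the 1 member called was Sox1 in place of Sox11.

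In 2 of 64 members the 3 exercised samples lay entirely above or below the 3 sedentary ones over all positions, Sox11 above and Sox2 below, against 7.25% of all regions. Over interior positions this was so in 7 of 62 (11.3%), against 9.34% of all regions, and 2 of 62, Sox11 and Foxp4, had an unadjusted p under 0.05, against 4.42%. With stand-alone positions alone left out, 3 of 64 did so, these 2 and Sox4, against 4.51%. None passed adjustment, and these counts are near those of the table as a whole.

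Foxp4, which acts in lung and gut development, had interior levels of 1.90%, 2.29% and 2.18% in exercised samples 1 to 3, against 1.22%, 1.13% and 1.02% in sedentary samples 1 to 3. The exercised samples were all higher, by 0.999 points over 44 positions (edgeR unadjusted p = 0.0110, adjusted p = 1), the smallest p of a member over interior positions. In its promoter window the 20 positions outside CCGG averaged 3.60%, 3.81% and 1.98% in exercised samples, against 1.15%, 1.27% and 1.75% in sedentary ones. Sox4 had 1.57%, 1.48% and 1.35% in exercised samples and 0.745%, 0.539% and 1.24% in sedentary ones, a difference of 0.627 points (unadjusted p = 0.0515). Foxc1, a factor of mesenchyme and vessels, averaged 2.20% ± 0.252 in exercised and 1.55% ± 0.323 in sedentary samples, and Foxd1, known from kidney stroma, 4.90% ± 2.26 and 2.84% ± 0.260. These 4 differences were 2.06 points or less. For comparison, the interior member positions under 10% averaged 2.36% ± 0.247 in exercised and 2.16% ± 0.273 in sedentary samples. Foxd1 had 7.51% in exercised sample 1 against 3.53% and 3.66% in the other exercised samples.

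The members that were lower without overlap were both Sox genes. Sox2 had interior levels of 7.99%, 7.86% and 8.58% in exercised samples 1 to 3, against 9.49%, 9.48% and 9.66% in sedentary samples 1 to 3, a difference of -1.40 points without overlap (edgeR unadjusted p = 0.508). Sox18, a factor of lymphatic and blood vessel endothelium, had 1.71%, 2.43% and 2.22% in exercised samples and 3.67%, 3.12% and 5.45% in sedentary ones, a difference of -1.96 points without overlap (unadjusted p = 0.0904). Foxb2, a relative of Foxb1, overlapped over all positions, with 24.2%, 20.2% and 19.6% in exercised samples and 28.4%, 22.6% and 20.2% in sedentary ones (difference -2.39 points, unadjusted p = 0.256).

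**Figure D4:**
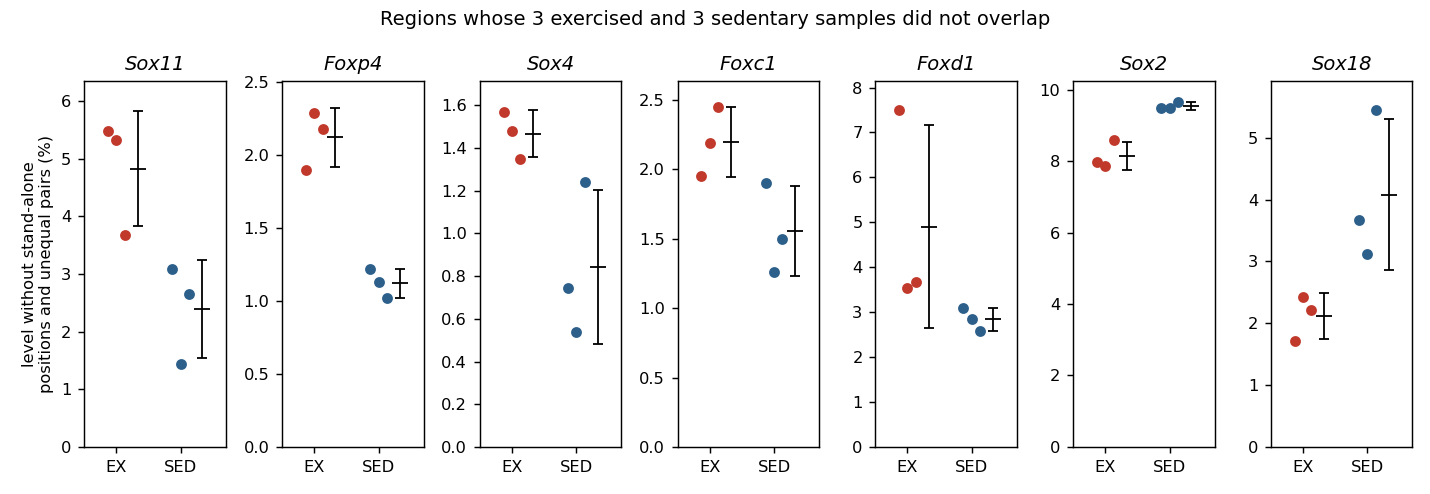
Interior level (%) of the 7 regions whose exercised (EX, left, red) and sedentary (SED, right, blue) samples did not overlap; each point is a sample and the black bar gives the mean ± SD of 3. Sox11, Foxp4, Sox4, Foxc1 and Foxd1 are higher and Sox2 and Sox18 lower in the exercised samples, by 0.627 to 2.44 points, and none passed adjustment.

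In the members with known roles in muscle the exercised and sedentary samples overlapped. Foxk1 had 14.7% ± 3.03 in exercised and 16.4% ± 2.42 in sedentary samples, Tbx15 9.29% ± 3.73 and 6.28% ± 2.42, Tbx1 11.8% ± 2.28 and 10.4% ± 0.216, Foxj3 1.85% ± 0.608 and 1.09% ± 0.372, and Foxp1 4.04% ± 1.59 and 2.75% ± 0.666 (interior levels, SD, n = 3 each). Foxc2, Sox8, Sox9, Gata2 and Gata4 had differences of -0.153, 0.638, -1.21, -7.64e-04 and -0.644 points. Foxl2, the ovary factor, and Sox13 were among the smaller p over all positions, with differences of 1.85 and 1.95 points (edgeR unadjusted p = 0.187 and 0.268), and exercised sample 1 was their highest sample. Foxn2, with 106 positions, had interior levels of 1.67% ± 0.312 in exercised and 1.40% ± 0.324 in sedentary samples.

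**Figure D5:**
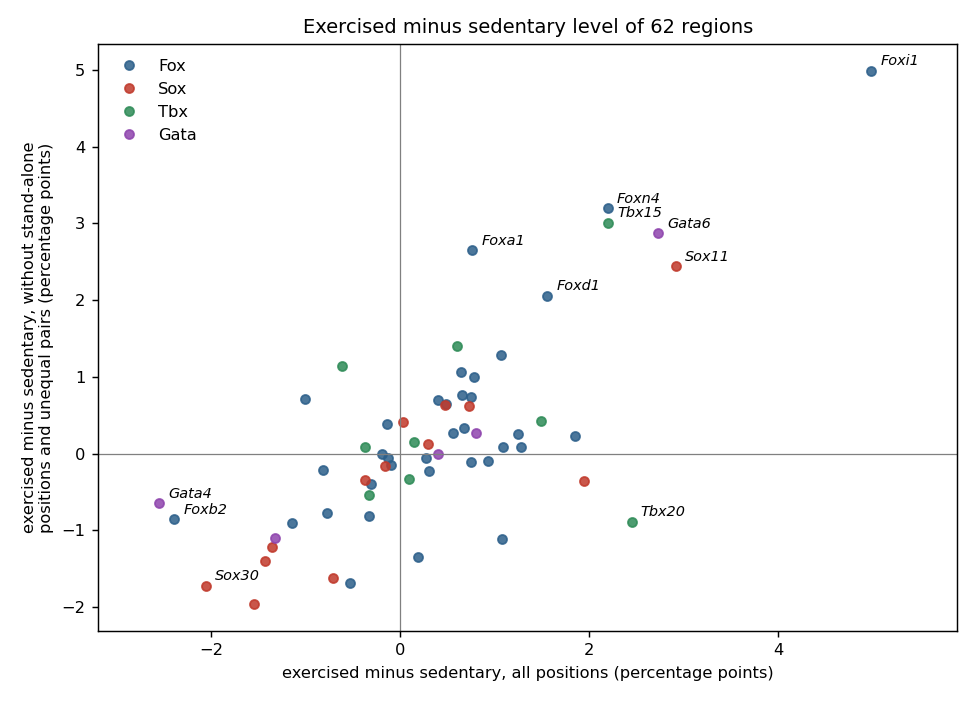
Exercised minus sedentary level (percentage points) of 62 members over all positions (horizontal axis) and over interior positions (vertical axis), coloured by family. Differences run from -2.55 to 4.99 points over all positions, and the sign of Tbx20 and some others differs between the axes.

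At single positions, no member position passed adjustment over the 253960 positions tested. At an unadjusted p under 0.05, 89 of 2371 member positions (3.75%) were called, against 3.32% of all positions. Of these, 56 were higher (2.36% of the member positions) and 33 lower (1.39%) in exercised samples, against 1.90% and 1.41% of all positions. Without sedentary sample 2 the balance turned to 30 higher and 35 lower, and without sedentary sample 3 it was 31 and 26. With the replicate number as a block the count was 18 (0.759%), against 0.729% of all positions. In the authors' deposited table, 71 of 2371 member positions (2.99%) had a p under 0.05, against 3.13% of all positions.

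The positions with the largest differences among those without overlap rested on single samples in several cases. The position of Tbx1 at 18586816 on chromosome 16 had 41.4%, 2.33% and 3.45% in exercised samples 1 to 3, against 0% in each sedentary sample, at 29 to 55 reads (difference 15.7 points, edgeR unadjusted p = 0.00417, adjusted p = 0.919). The Foxd1 position at 99124890 on chromosome 13 had 31.4%, 2.17% and 2.70% in exercised samples, against 1.22%, 0% and 0% in sedentary ones. Both are high in exercised sample 1 alone. Foxc1 had a steadier one at 31898976 on chromosome 13, with 7.46%, 9.66% and 9.47% in exercised samples and 2.91%, 1.10% and 0% in sedentary ones, at 67 to 182 reads (unadjusted p = 0.0178, adjusted p = 0.919). Another Foxc1 position, at 31898152, had 16.1%, 3.51% and 4.65% in exercised samples and 0%, 1.08% and 0% in sedentary ones. The most negative of these differences was at Foxb1, a factor of the developing brain, at 69609049 on chromosome 9, with 0%, 4.30% and 0.990% in exercised samples, against 5.88%, 8.99% and 20.8% in sedentary ones (unadjusted p = 0.0238, adjusted p = 0.919). The other 3 lower positions differed by less. Foxm1, a factor of cell division, had a stand-alone position at 128312927 on chromosome 6 with 93.5% ± 6.42 in exercised and 99.6% ± 0.649 in sedentary samples. Foxc1 at 31898342 and Foxn2 at 88840288 on chromosome 17 were at 0% in each exercised sample, against 5.17% ± 5.25 and 3.36% ± 3.49 in sedentary samples (SD, n = 3 each).

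Genes that work with the members were described in the same way. Of 24 genes of the FoxO pathway, 18 were measured in 21 regions, 13 higher and 8 lower in exercised samples with a median difference of 0.490 points, against 0.390 over all regions, and none passed the adjusted or the unadjusted threshold. The regions of the atrophy ligase gene Fbxo32 and of the insulin receptor gene Insr, for example, had 12.6% ± 1.48 in exercised and 13.9% ± 0.327 in sedentary samples, and 17.2% ± 2.01 and 16.0% ± 0.616. Of 15 partners and unnumbered relatives of the Gata, T-box and Sox factors, 10 were measured in 11 regions, 8 higher and 3 lower in exercised samples (median difference 0.701 points), and 1 had an unadjusted p under 0.05, against 2.37% of all regions. This was Tal1, a blood factor that works with Gata proteins. It had 54.1%, 65.6% and 60.7% in exercised samples, against 42.6%, 53.5% and 50.0% in sedentary ones, over 4 positions (difference 11.4 points, edgeR unadjusted p = 0.0458, adjusted p = 1). Without stand-alone positions the Tal1 difference was 18.5 points and the unadjusted call was lost (edgeR unadjusted p = 0.0617).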

How the data were processed

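RRBS of quadriceps DNA was deposited by the authors as 1 table for 6 samples. Per position and sample it holds the fraction of methylated reads and the read count, and per position the authors' p-value. Per the submitters' processing notes, the tools were Trim Galore 0.2.5, cutadapt 1.0, Bismark 0.7.7 and Bowtie 0.12.9 and the build was mm9. What each tool did is not stated. Reads are not known to be separate molecules, so read counts overstate precision.

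The product of the 2 was whole (largest deviation 0.00236 reads) and gave methylated and unmethylated counts. Counts were summed over each region and tested with edgeR 4.0.16 (R 4.3.3), with sample terms and a group effect on methylated reads. A common dispersion was estimated without a trend, and the quasi-likelihood fit then used its default settings. Benjamini-Hochberg adjustment ran over all regions or positions. A level is methylated over all reads. Limma 3.58.1 gave alternatives, on log2 ratios with an offset of 2 reads and on levels with equal weight of positions. The edgeR test was checked on simulated counts with changes larger than any region difference of the members. The check therefore does not cover differences of the size reported here. Symbols were matched for 10655 of 10755 transcripts through RefSeq (GRCm38.p6), which also gave promoters for 40 of the 63 member genes. A promoter was placed where all measured positions of its window, at least 5, fell on a CpG. Of 2100 promoters with 1 such window when all windows were tried, 1353 put the start at base 2001. Of the placed members, 8 fitted no other window and 4 fitted another, 1 base away.

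The members, gene lists and tests were chosen with earlier results of these data known, and unequal pairs and interior positions after seeing the data. The text names, per direction, the 6 members with the smallest p at 20 reads or more, the 6 highest levels, the 3 with the most positions, the largest difference per family, a list with roles in muscle, and the 4 largest position differences per direction. Members without overlap, the placed windows, neighbours and the remaining family members were named after their values were seen. The other members enter the counts and medians.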

Additional observations from a re-analysis of the deposited data

How the results depend on the processing

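No region and no position passed the adjusted threshold under any alternative run. The count of member regions at an unadjusted p under 0.05 and higher in exercised samples was 1. It was 0 at a coverage of at least 20 reads, 0 over positions at 10% to 90%, 0 with limma on log2 ratios, 3 without stand-alone positions and 2 over interior positions (the last chosen after seeing the data), and 0 to 3 when 1 sample was left out. Over all regions the count in both directions was 237. It was 131 over positions at 10% to 90%, 438 without stand-alone positions and 421 over interior positions. With equal weight of positions, fitted by limma on levels, it was 384. The edgeR count was 169 without exercised sample 1, 345 without sedentary sample 2 and 601 without exercised sample 3. The median difference over members was 0.398 points, -0.126 over positions at 10% to 90% and -0.0610 to 0.955 when 1 sample was left out, and the difference of their mean levels, 0.421 points, was -0.0951 without exercised sample 1. The count of member positions at an unadjusted p under 0.05, 89, was 18 with a replicate block and 39 to 83 when 1 sample was left out. The labels do not say whether equal replicate numbers mark a pair. The deviations of same-numbered samples correlated at 0.0190, -0.219 and -0.111, and those of other pairs at -0.101 to 0.221. With 3 samples per group these values cannot settle whether the samples are paired. The replicate block called Sox11 as the fit without it did. The mean level of the 12 placed windows was 21.7% and 4.72% without positions in CCGG or TCGA, an alternative chosen after seeing the data.

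Of 435 recomputed differences of the 30 named members, 382 kept their sign and 53 did not, and 9 members kept it throughout. The replicate block and the minimum of 5 positions per region leave a region's difference unchanged, so the signs kept there were fixed in advance. The sign turned at a coverage of at least 20 reads in Foxk2 (-0.110 points), Foxo1 (-0.380), Foxo3 (0.924) and Foxp1 (-0.135). Over positions at 10% to 90% it turned in Foxl2 (-0.395), Foxo1 (-2.46), Foxo6 (-0.505), Foxp1 (-2.71), Foxs1 (0.495), Gata2 (-3.85), Gata6 (-3.82), Sox11 (-0.266), Sox2 (0.297) and Tbx1 (-1.16). Without stand-alone positions, and likewise over interior positions, it turned in Foxk2 (-0.227), Foxo1 (-0.0536), Gata2 (-7.64e-04), Sox13 (-0.356) and Tbx20 (-0.887). With equal weight of positions it turned in Foxk2 (-0.200), Foxs1 (0.840), Gata2 (-0.0871), Sox30 (0.229) and Tbx4 (-0.140). With 1 sample left out the differences ran over 0 in Foxc2 (-1.02 to 0.996), Foxk1 (-1.26 to 0.928), Foxk2 (-0.110 to 1.0), Foxo1 (-0.956 to 1.23), Foxo3 (-0.668 to 0.432), Foxo4 (-3.49 to 0.222), Foxp1 (-0.178 to 1.99), Foxs1 (-3.73 to 0.788), Gata2 (-0.508 to 1.36), Gata6 (-0.981 to 5.43), Sox8 (-2.19 to 2.04), Tbx1 (-0.145 to 1.65), Tbx4 (-1.90 to 2.40) and Tbx5 (-0.134 to 3.91). The cause was not tested. Regions of few positions and sedentary sample 3, with the lowest coverage, limit the precision.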
